A study of Homo sapiens with 38 samples.

Results

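Nuclear RNA from HCT116 cells lacking both AGO1 and AGO2 (AGO1/2 knockout) was compared with nuclear RNA from HCT116 cells lacking AGO1 alone (AGO1 knockout). The pair of genotypes shares the loss of AGO1, so the comparison asks what the loss of AGO2 adds in nuclei that already lack AGO1. The libraries were selected by their labels and numbered 6 of the 30 RNA-seq libraries. They comprised 3 AGO1/2 knockout libraries (genotype AGO1-/-, AGO2-/-, passages 9, 10 and 11) and 3 AGO1 knockout libraries (genotype AGO1-/-, passages 6, 7 and 8). HCT116 is an established human colorectal carcinoma cell line, and the cells received no treatment. Each knockout genotype was 1 edited line grown through successive passages, so the loss of AGO2, the history of the line and the passage number cannot be told apart, and p-values measure the spread between passages of 1 line. Nuclear libraries of wild-type cells (passages 27, 28 and 29), AGO2 knockout cells (AGO2-/-, passages 8, 9 and 10) and AGO1/2/3 knockout cells (AGO1-/-, AGO2-/-, AGO3-/-, passages 11, 12 and 14), and the cytoplasmic libraries of the same AGO1 and AGO1/2 knockout lines, are used below only to show where the difference also appeared.

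Argonaute proteins bind microRNAs, and the microRNA guides the complex to RNAs that pair with bases near its 5′ end, the seed. In the cytoplasm the complex recruits TNRC6 scaffold proteins and the deadenylation and decapping machinery, which shortens the life of the target mRNA. AGO2 is the only human Argonaute with robust slicing activity toward perfectly paired targets, and AGO1, AGO3 and AGO4 share most targets with it. Argonaute proteins are also found in nuclei, where their roles in transcription and splicing are less well understood.

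Estimated reads, summed over the transcripts of each gene, came to between 31252459 and 32282444 in the AGO1 knockout nuclear libraries and between 47780524 and 54097984 in the AGO1/2 knockout nuclear libraries. Levels below are in TPM, which is scaled for transcript length, and differences are log2 fold changes from edgeR, AGO1/2 minus AGO1 knockout, with the standard error (SE). Epithelial markers were present, with EPCAM between 58.1 and 87.4 TPM and KRT8 above 421 TPM in the 6 libraries, but the colonocyte genes CDX1, VIL1 and CDH17 were at or near 0 in both groups. Of the markers of other cell types, PTPRC and CD3E (immune), PECAM1 and VWF (endothelial) and COL3A1 (fibroblast) were at no more than 0.111 TPM in any of the 6 libraries. The exceptions were CD68 and COL1A1. CD68, a lysosomal glycoprotein used as a macrophage marker, was at 0.397 to 0.475 TPM in AGO1 knockout and 3.33 to 3.77 TPM in AGO1/2 knockout nuclei. The fibroblast marker COL1A1 was at 4.39 to 4.99 TPM and 4.30 to 6.09 TPM, and its difference did not pass the test (-0.11, adjusted p = 0.365 in edgeR). The nuclear-retained MALAT1 was at least 1238 TPM in each of the 6 nuclear libraries and at most 156 TPM in the matching cytoplasmic libraries.

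The loss of AGO2 in AGO1-null cells went with a broad difference in nuclear RNA. Of 18919 genes tested, 11546 passed an adjusted p of 0.05 after Benjamini-Hochberg correction (61.0%), of which 5713 were higher (30.2%) and 5833 lower (30.8%) in AGO1/2 knockout nuclei. The median size of a called difference was 1.63-fold. A difference of at least 1 on the log2 scale was found for 3569 genes (18.9%), 1462 higher (7.73%) and 2107 lower (11.1%). In scaled counts per library the groups did not overlap for 12823 genes (67.8%), 32.9% of all genes being higher and 34.9% lower. The balance of rises and falls depended on the scale. On log2(TPM + 1) with limma, 9779 genes were called. Of those, 64.9% were higher, where edgeR gave 49.5%. The all-gene median moved by 0.10 (by 0.16 on log2(TPM + 0.1), with 64.2% higher). Changes are therefore given on edgeR's scale, on which the median over all genes was -0.04 (0.06 on log2(TPM + 1)).

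A few abundant structural RNAs, singled out after their values were seen, took up different shares of TPM in the groups. RMRP, the RNA of the ribonucleoprotein RNase MRP, which takes part in ribosomal RNA processing, made up 19.3%, 21.4% and 23.6% of all TPM in the AGO1 knockout libraries and 8.01%, 7.48% and 9.14% in the AGO1/2 knockout libraries. In reads RMRP took 2.71% to 3.82% in the AGO1 knockout and 0.851% to 1.14% in the AGO1/2 knockout libraries. TPM is scaled for length, which raises the share of short RNAs such as these. The log2 fold change of RMRP was -1.61 (SE 0.139), and -0.74 in the cytoplasm. RN7SL1, the RNA scaffold of the signal recognition particle, took the opposite course, from between 8.75% and 9.44% of TPM to between 16.9% and 17.3% (log2 fold change 0.69, SE 0.0806). RN7SL2, a near-identical copy whose reads may be exchanged with RN7SL1, gave 0.76. RN7SK, which restrains transcription elongation, was at 2.91% to 3.44% and at 3.78% to 4.62% of TPM and did not pass the test (0.17, adjusted p = 0.232). TPM of every other gene shares its total with these RNAs, and their part in the gap between scales was not tested.

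The Argonaute mRNAs were examined first. AGO2 (ENSG00000123908.12, chromosome 8, 140520156 to 140635633, minus strand, GRCh38) had nuclear levels of 52.5, 40.5 and 41.3 TPM in AGO1 knockout cells and 33.4, 41.2 and 28.5 TPM in AGO1/2 knockout cells. The ranges overlapped, and summed reads gave a log2 fold change of -0.04 (SE 0.0777, adjusted p = 0.671). With counts scaled by transcript length the value was -0.53, and with limma on log2(TPM + 1) it was -0.38, both past the threshold. The most abundant annotated coding transcript, AGO2-201, was at 20.7, 18.2 and 18.0 TPM against 22.8, 24.6 and 18.9 TPM, so it was not the transcript that carried the lower TPM. Every other AGO2 transcript had a lower mean in AGO1/2 knockout nuclei. The largest fall was in AGO2-202, annotated without a defined coding sequence, from a mean of 7.67 to 1.62 TPM. A small edit need not lower the mRNA, so these values do not check the genotype. In AGO1-intact nuclei, AGO2 fell by 0.47 on the log2 scale from wild-type to AGO2 knockout cells, from a mean of 53 to 30 TPM.

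AGO1 (ENSG00000092847.14, chromosome 1) was already low in the AGO1 knockout line, at 4.13, 3.67 and 3.54 TPM against a mean of 11.2 TPM in wild-type nuclei. It was lower still in AGO1/2 knockout nuclei, at 2.77, 2.68 and 2.76 TPM (log2 fold change -0.65, SE 0.0695). The cytoplasmic difference had the opposite sign (0.30, adjusted p = 0.000934). AGO4, which lies beside AGO1, was at 1.31, 1.73 and 1.69 TPM and at 2.30, 2.59 and 2.91 TPM, without overlap (0.82, SE 0.128), and rose by 0.97 in the cytoplasm. AGO3 was at 16.1, 13.8 and 13.9 TPM and at 15.4, 15.8 and 13.9 TPM, and its small difference changed sign with the filter and length scaling (0.07, adjusted p = 0.352).

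Small RNAs were not measured here, so the microRNAs themselves enter only through the genes that pair with them. The mature sequences below, from RefSeq on GRCh38.p14, are those whose families the target lists follow or whose matching genes differed most, with the seed (bases 2 to 8) in capitals.
hsa-let-7a-5p: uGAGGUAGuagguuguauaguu
hsa-miR-17-5p: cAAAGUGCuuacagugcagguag
hsa-miR-21-5p: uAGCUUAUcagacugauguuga
hsa-miR-200b-3p: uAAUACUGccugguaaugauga
hsa-miR-141-3p: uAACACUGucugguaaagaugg
hsa-miR-24-3p: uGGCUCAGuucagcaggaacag
The microRNAs miR-200b and miR-141 belong to the same epithelial group but carry different seeds, so they pair with different sites.

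The well-known targets are described family by family, and differences between the families were not tested. Of all genes 30.2% were called higher and 30.8% lower. Of the 13601 protein-coding genes 5455 were higher and 3345 lower (median 0.12), against which lists of coding genes here and below are to be read. The miR-200 targets, which include cytoskeletal and mesenchymal genes, had 20 of 25 tested members higher and 3 lower. Their median log2 fold change was 0.77, against -0.04 over all genes and 0.12 over protein-coding genes. Among them MARCKS, a substrate of protein kinase C at the membrane, rose from 4.01, 3.85 and 3.75 TPM to 29.4, 32.5 and 26.5 TPM (2.71, SE 0.0796, adjusted p = 2.92e-13). ETS1, a transcription factor, rose from 1.48, 0.883 and 1.14 TPM to 5.86, 8.36 and 4.76 TPM (2.32, SE 0.197). ZEB1, the repressor of epithelial genes, rose from between 3.12 and 4.36 TPM to between 7.43 and 10.3 TPM (1.24, SE 0.107). In each of these 3 genes the lowest AGO1/2 knockout library lay above the highest AGO1 knockout library. The Notch ligand JAG1 went the other way, from 24.3, 26.4 and 25.7 TPM to 10.3, 8.30 and 11.8 TPM (-1.21, SE 0.116).

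The miR-17 family targets had 20 of 32 members higher and 6 lower, with a median of 0.49. SMAD7, an inhibitor of TGF-beta signalling, had the largest rise, from 0.658, 0.397 and 0.663 TPM to 4.03, 4.46 and 4.36 TPM (2.61, SE 0.142), and the BMP receptor BMPR2 rose by 1.29 (SE 0.0574). The cyclin CCND1, also a let-7 and Wnt target, rose from 89.9, 75.9 and 69.0 TPM to 337, 399 and 286 TPM (2.02, SE 0.101), with no overlap between the groups. The let-7 targets were split, with 17 of 35 higher, 10 lower and a median of 0.28. The GTPase gene NRAS was among the rises (0.77), while MYC (-1.17), E2F5 (-1.64) and the repressor PRDM1 (-2.74) fell, the first 2 of these on the long arm of chromosome 8 described below. Of the miR-21 targets 8 of 26 were higher and 8 lower, near the shares over all genes. Their median of -0.04 lay below the protein-coding median of 0.12, and was 0.16 on log2(TPM + 1) (0.21 over protein-coding genes). Of the miR-21 targets, PDCD4, the tumour suppressor most often used as a reporter of miR-21, did not pass the test (-0.07).

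In the wider set of protein-coding genes, a seed match in the 3′ UTR was only weakly related to the difference. Of 13256 genes with an annotated 3′ UTR, those with a match to each of 12 families were set against those without one. The 12 families were taken as abundant, which was not measured here, and were set beside 3 microRNAs taken as restricted to other tissues. The motifs searched were the reverse complements of the seeds, on the transcript strand only, such as CTACCTC for let-7 (11.3% of UTRs), GCACTTT for miR-17 (24.5%) and CTGAGCC for miR-24 (17.7%). In nuclei the median log2 fold change of genes with a match minus that of genes without one ranged from -0.04 for miR-26 and let-7 to 0.07 for miR-24. In the cytoplasm the range was -0.03 to 0.14, again with miR-24 at the top, and let-7 (0.06) and miR-17 (0.08) were above 0. The 3 tissue-restricted microRNAs spanned -0.03 to 0.02 in nuclei and -0.03 to 0.09 in the cytoplasm, and in nuclei miR-24 (0.07), miR-15/16 (0.04) and miR-19 (0.03) lay above the highest of them while let-7, miR-26, miR-21 and miR-25/92 lay below the lowest, the last 2 of them by less than 0.01. Genes with a match also have longer UTRs (a median of 3066 bases with a let-7 match and 1140 without). Among UTRs of intermediate length (from 500 to under 2000 bases), an alternative added after seeing the data, the nuclear values ran from -0.11 for miR-21 to 0.10 for miR-24, against -0.09 for miR-208 and 0.04 for miR-122 among the tissue-restricted microRNAs.

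**Figure D1:**
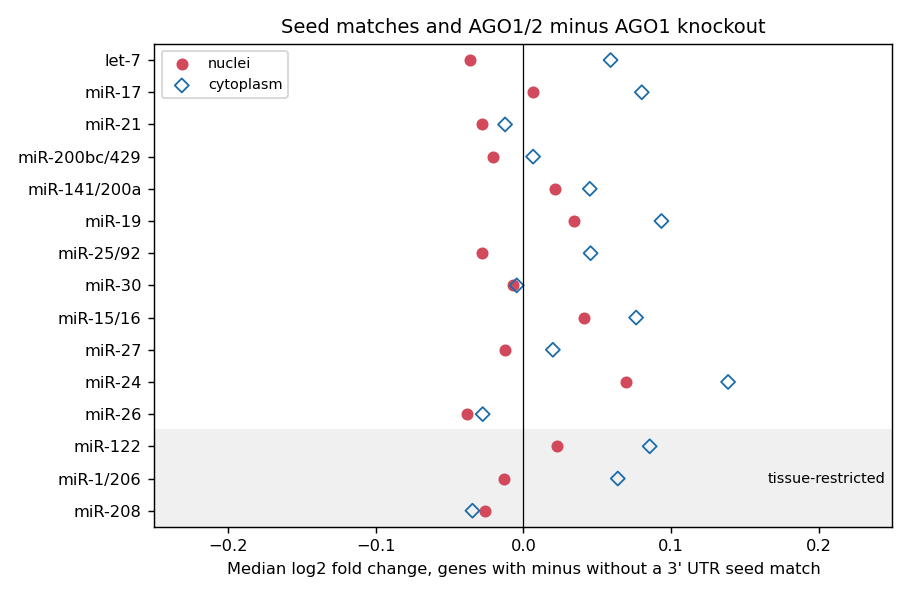
Difference in median log2 fold change (AGO1/2 minus AGO1 knockout) between genes with and without a 3′ UTR seed match, for 12 microRNA families taken as abundant and, on the shaded band, 3 tissue-restricted microRNAs, in nuclei (filled circles) and cytoplasm (open diamonds). All points lie between -0.04 and 0.14, and the miR-24 family is farthest to the right in both fractions.

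Of 30 factors of the silencing pathway 11 were higher and 6 lower in nuclei (56.7% called, against 61.0% of all genes), none by 1 or more on the log2 scale. Cytoplasmic calls leaned the other way, with 5 higher and 16 lower of 30 (median -0.20). Nuclear DROSHA, which cleaves primary microRNAs, fell from 37.6, 37.9 and 36.8 TPM to 27.4, 27.4 and 27.1 TPM (-0.36, SE 0.0538), and the exporter XPO5 fell by 0.33. DICER1 did not pass the test in nuclei (0.18, adjusted p = 0.0941). On the effector side the decapping enzyme DCP2 rose most, from 21.4, 18.2 and 15.6 TPM to 30.1, 33.4 and 26.6 TPM (0.86, SE 0.0640), followed by the Argonaute partner TNRC6C (0.62, SE 0.0598) and the deadenylase subunit CNOT6 (0.57). The other TNRC6 paralogs rose by 0.34 (TNRC6A) and 0.22 (TNRC6B).

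Of 19 noncoding genes that host microRNAs 3 were higher and 9 lower, with a median of -0.59 (-0.22 on log2(TPM + 1)). Over all 3229 lncRNA genes tested the median was -0.61, so the hosts' median was near that of their class. MIR17HG, whose transcript contains miR-17, fell from 17.5, 16.1 and 17 TPM to 6.22, 6.51 and 6.65 TPM (-1.59, SE 0.106). MIR200CHG, the host of miR-141, fell from 4.68, 5.33 and 4.90 TPM to 2.75, 0.909 and 2.59 TPM (-1.46, SE 0.288). MIR34AHG, the host of the p53-induced miR-34a, fell from 7.63, 7.59 and 7.38 TPM to 2.40, 2.95 and 3.29 TPM (-1.48, SE 0.113). The host H19 rose from a low level (1.90, SE 0.163). In the cytoplasm 9 of 17 hosts were higher and 3 lower, with a median of 0.38, and MIR100HG was lower in nuclei (-0.80) but higher in cytoplasm (0.38).

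The largest single-gene differences approached presence against absence. The 12 protein-coding genes with the largest fall and the 12 with the largest rise were taken by the size of this same contrast, from genes reaching 5 TPM in the higher group without overlap between the groups, so their nuclear values are given as a description. ANK3, which encodes ankyrin-G and anchors membrane proteins to the spectrin skeleton, was at 4.90, 4.97 and 5.55 TPM in AGO1 knockout nuclei and at 0, 0 and 0.00555 TPM in AGO1/2 knockout nuclei. Summed over libraries this was 3159 reads against 1, a depth-scaled ratio of 5089 with a 95% counting interval of 913 to 201069. ANXA10, an annexin, was at 26.7, 20.6 and 20.7 TPM and at 0, 0.0308 and 0 TPM, or 3442 reads against 2 (ratio 2772, interval 767 to 22902). These intervals cover counting error only.

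The other falls kept a low but measurable level. SLC1A3, a glutamate transporter, went from 7.36, 7.42 and 6.45 TPM to 0.284, 0.05 and 0.0167 TPM (log2 fold change -7.11, SE 0.253). SAMD3 and TMEM200A, neighbours on opposite strands of chromosome 6 (130144315 to 130365425 and 130366017 to 130443067), fell together by 6.97 and 5.24. MAL2, a membrane protein of the transcytotic route in polarised epithelial cells, went from 9.88, 7.87 and 7.35 TPM to 0.193, 0.341 and 0.0987 TPM (-5.84, SE 0.196). SEMA3A, a secreted guidance ligand, was the most abundant of the group, at 48.7, 44.5 and 45.2 TPM and then 0.971, 0.820 and 1.45 TPM (-4.84, SE 0.163). The others were the adhesion receptor ADGRF1 (-4.78), DPYSL3, a cytoskeletal regulator of axon growth (-4.53), the transcription factor MEF2C (-4.36), the dipeptidase DPEP1 (-4.32) and PKIB, an inhibitor of protein kinase A (-4.01).

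Among the rises, TM4SF18, a tetraspan membrane protein, was at 0, 0 and 0.0221 TPM in AGO1 knockout nuclei and at 5.01, 7.43 and 7 TPM in AGO1/2 knockout nuclei (8.21, SE 0.460). DCLK1, a microtubule-associated kinase, was at 0.0930, 0.222 and 0.119 TPM and at 22.0, 27.7 and 16.8 TPM (7.36, SE 0.195). SLC2A3, the high-affinity glucose transporter GLUT3, was at 0.654, 0.403 and 0.767 TPM and at 25, 37.7 and 13.1 TPM (6.43, SE 0.450). In each of these 3 genes every AGO1/2 knockout library lay above every AGO1 knockout library.

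PRPS1, which makes the ribose donor for nucleotide synthesis, was at 1.19, 0.962 and 1.52 TPM and at 37.2, 42.2 and 30.2 TPM (4.74, SE 0.111). Wild-type nuclei had a mean of 14.2 TPM, so PRPS1 was low in the AGO1 knockout line rather than only high in the AGO1/2 knockout line. S100A4, a calcium-binding protein typical of mesenchymal cells, was the most abundant of the rises, from 13.2, 14.9 and 15.4 TPM to 199, 165 and 329 TPM (3.75, SE 0.295). The other rises were MYBPH, a myosin-binding protein (7.70), SUSD2 (4.70), the decoy receptor TNFRSF6B (4.61), the cytochrome P450 CYP4F11 (4.28), the transmembrane collagen COL13A1 (4.09), CLIC3 (3.85) and the alpha-globin gene HBA2 (5.10). HBA2 and HBA1 are near-identical, and TNFRSF6B overlaps the neighbouring RTEL1 locus, so the levels of both are uncertain.

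**Figure D2:**
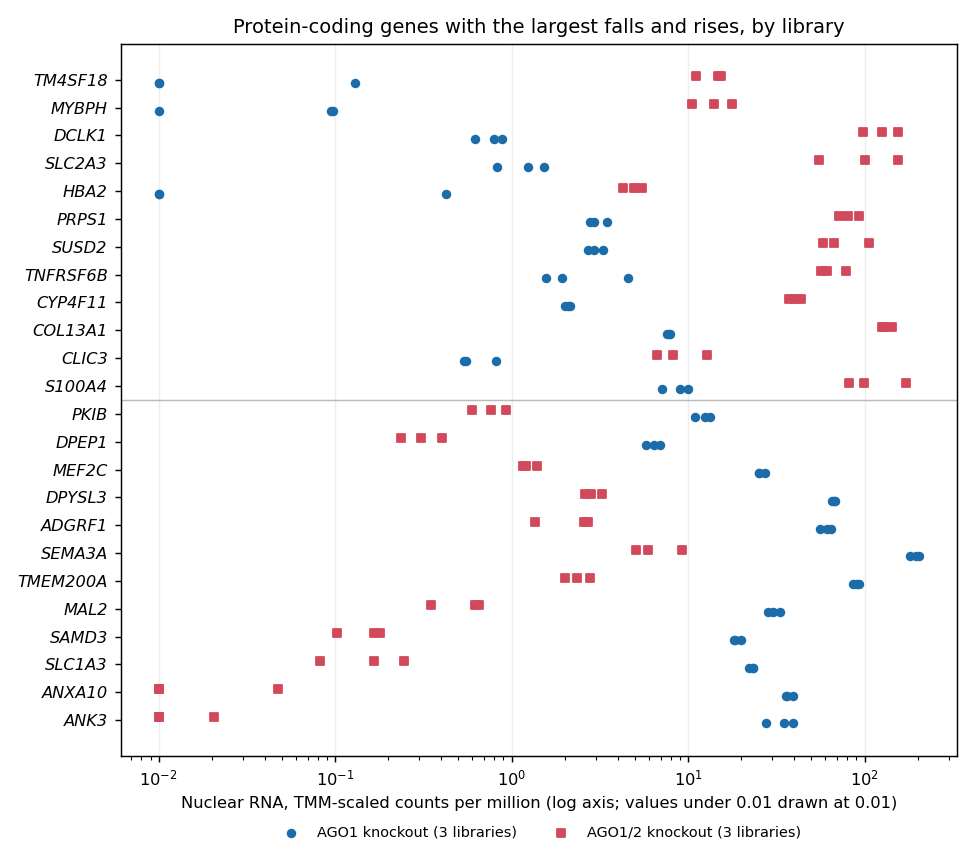
Nuclear level of the 12 protein-coding genes with the largest rises (top) and the 12 with the largest falls (bottom), in TMM-scaled CPM on a log axis, 1 point per library (AGO1 knockout, circles; AGO1/2 knockout, squares). In all 24 genes the groups are separated, as the choice of genes required, and ANK3, ANXA10 and TM4SF18 are close to 0 in one group.

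Cytoplasmic libraries played no part in choosing these genes. In the cytoplasm, where 54.1% of genes were called (27.8% higher and 26.4% lower), all 24 were called in the same direction as in nuclei. In AGO1/2/3 knockout nuclei the mean of each of the 12 falling genes was below every AGO1 knockout library, and the mean of each of the 12 rising genes was above every one. This sets them against the same AGO1 knockout libraries that chose the genes, so it is a description only. AGO2 loss in AGO1-intact nuclei gave a mixed picture. Of the falls 7 were called lower and 3 higher in AGO2 knockout against wild-type nuclei, and of the rises 5 were called higher and 2 lower, where 39.9% of all genes were called, 20.1% higher and 19.8% lower. ANXA10 (-7.38), SEMA3A (-5.32) and DPEP1 (-5.08) were lost in both backgrounds, whereas SLC1A3 (1.27) and ADGRF1 (1.45) rose in the AGO2 knockout line.

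Long noncoding RNA genes were lower as a class. Of 3229 tested, 172 were higher and 1537 lower, with a median of -0.61 (-0.14 on log2(TPM + 1)), against 5455 higher and 3345 lower of 13601 protein-coding genes (median 0.12). The same class was balanced in the cytoplasm, with 382 higher and 347 lower of 2285 and a median of -0.02. Markers of the fractions differed too. Nuclear GAPDH, a cytoplasmic mRNA, rose by 0.50, its library values going from between 1441 and 1772 TPM to between 2479 and 2773 TPM, and nuclear MALAT1 fell as given below. Their part in the result was not tested. Processed pseudogenes followed the lncRNA pattern, with 45 higher and 383 lower of 1009 (median -0.58, and -0.12 on log2(TPM + 1)). Since pseudogenes share sequence with their parent genes, their levels are uncertain. The class of annotated snoRNAs, which guide chemical modification of ribosomal and spliceosomal RNA, had no called rise, with 0 higher and 106 lower of 126 and a median of -1.28 (-1.03 on log2(TPM + 1)). Summed snoRNA levels were 43474 to 51498 TPM in AGO1 knockout nuclei and 22207 to 29012 TPM in AGO1/2 knockout nuclei, without overlap. In the cytoplasm 32 of these snoRNAs could be tested, of which 1 was higher and 5 lower. AGO2 loss in AGO1-intact nuclei gave 13 higher and 4 lower snoRNAs, where 20.1% of all genes were higher and 19.8% lower. There the lncRNAs and processed pseudogenes were lower too. Of the same lncRNAs 103 were higher and 787 lower (median -0.27), and of the processed pseudogenes 18 were higher and 286 lower (median -0.47).

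**Figure D3:**
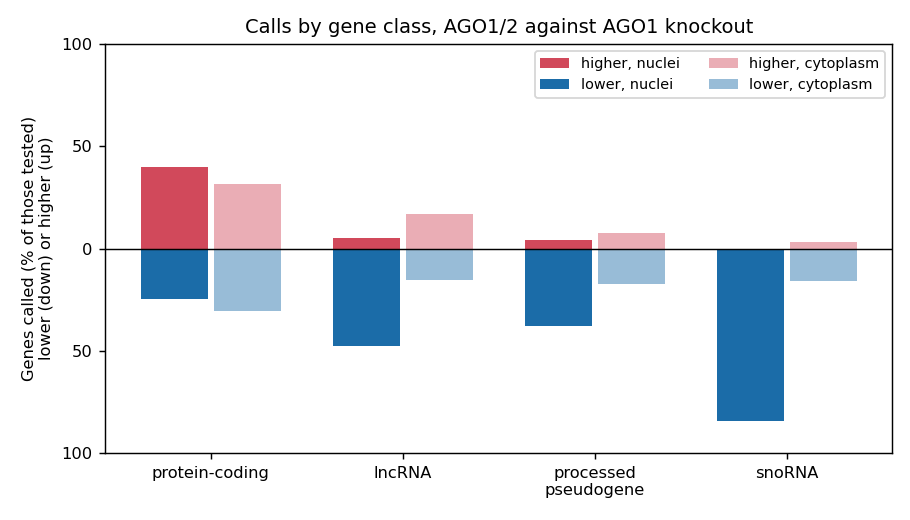
Percentage of tested genes called higher (upward bars) or lower (downward bars) in AGO1/2 against AGO1 knockout cells, by gene class, in nuclei (dark) and cytoplasm (pale). In nuclei the 126 snoRNAs and 3229 lncRNAs lie mostly below the line, while of the 13601 protein-coding genes 5455 lie above it and 3345 below.

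Some individual lncRNAs were nearly lost. PURPL, a p53-induced lncRNA, was at 47.7, 46.0 and 42.7 TPM in AGO1 knockout nuclei and at 0.266, 0.328 and 0.319 TPM in AGO1/2 knockout nuclei (-7.43, SE 0.124). Wild-type nuclei had a mean of 2.60 TPM, so the AGO1 knockout line was the one that stood apart. MSRB3-AS1 was at 27.8, 21.9 and 21.6 TPM and at 0.435, 0.790 and 0.386 TPM (-5.81, SE 0.204), with a wild-type mean of 29.5 TPM. The unnamed genes ENSG00000235070 (-4.97) and ENSG00000258088 (-3.34) completed the 4 largest falls. Of the 4 largest rises, ENSG00000238178 (1.73) and ENSG00000290808 (1.62) were each above in every library. The other two, ENSG00000280441 (3.81, SE 1.09) and ENSG00000278996 (3.25, SE 1.11), are near-identical copies on chromosome 21 and lost their call in some alternatives, so both are uncertain.

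Among lncRNAs listed as nuclear-retained 8 of 13 fell and 1 rose, where 1537 of all 3229 lncRNA genes fell and 172 rose. MALAT1, the most abundant, went from 2104, 1683 and 1656 TPM to 1271, 1238 and 1430 TPM (-0.65, SE 0.122). FIRRE, an X-linked lncRNA that organises nuclear architecture, fell by 1.88, and the snoRNA host genes GAS5 and SNHG1 fell by 1.03 and 1.05. In the cytoplasm GAS5 (0.13) and SNHG1 (0.20) did not pass the test. NEAT1, the scaffold of paraspeckles, was not called (-0.11), and CYTOR rose (1.38, SE 0.151). CYTOR was no higher in nuclei than in cytoplasm, so its place on this list does not hold here. Its means were 12.2 TPM in nuclei and 15.9 TPM in cytoplasm of AGO1 knockout cells, and 38.2 and 38.9 TPM in AGO1/2 knockout cells. Fewer molecules per nucleus and a different share of nuclear RNA cannot be told apart in such libraries.

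Mesenchymal genes had the largest median rise of the lists with at least 10 tested members. Of the 32 genes on the list 21 were tested, 15 were higher and 3 lower, 14 of the rises exceeded 1 on the log2 scale, and the median was 1.58 (1.02 on log2(TPM + 1)). Over all genes 30.2% were higher and 30.8% lower, and 7.73% rose by at least 1. VIM, the intermediate filament of mesenchymal cells, rose from 2.37, 1.93 and 2.19 TPM to 20.5, 22.3 and 19.8 TPM (3.12, SE 0.109, adjusted p = 1.74e-12). AXL, a receptor tyrosine kinase, rose from 6.46, 4.87 and 5.96 TPM to 69.5, 80.2 and 49.4 TPM (3.35, SE 0.285). SPARC, a secreted matrix glycoprotein, rose from 0.168, 0.0904 and 0.139 TPM to 2.76, 1.42 and 4.14 TPM (4.89, SE 0.628), and COL6A1, a collagen chain, from between 9.68 and 9.96 TPM to between 44.4 and 57.4 TPM (2.19, SE 0.116). None of these overlapped between groups. SNAI1 (-0.14) and TAGLN (0.19) did not pass the test, and ACTA2 fell (-0.66). In AGO1-intact nuclei the same list had 2 members higher and 8 lower, where 20.1% of all genes were higher and 19.8% lower.

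Epithelial genes were split, with 16 of 35 higher, 11 lower and a median of 0.21 in nuclei. Protein-coding genes as a class had 5455 of 13601 higher, 3345 lower and a median of 0.12. Among the falls were genes of cell junctions and epithelial splicing. CDH1, encoding E-cadherin, went from 7.60, 7.59 and 8.09 TPM to 3.89, 3.23 and 5.34 TPM (-1.03, SE 0.280, adjusted p = 0.00745). CLDN7 fell by 1.02 (SE 0.210), PKP3, a desmosomal plakophilin, by 1.37, and the epithelial splicing regulator ESRP1 from 35.6, 35.0 and 33.7 TPM to 11.2, 8.75 and 14.9 TPM (-1.70, SE 0.185). Among the rises were keratins and the claudin CLDN4 (1.12), while the keratin KRT23 fell (-0.50). KRT8 went from 576, 490 and 421 TPM to 1201, 1265 and 1170 TPM (1.08, SE 0.0851), KRT18 rose by 1.08 and KRT19 by 1.05. In the cytoplasm 4 of 35 epithelial genes were higher and 16 lower, with a median of -0.24, and KRT8 did not pass the test there (0.25, adjusted p = 0.0874).

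Genes of the TGF-beta and Wnt pathways leaned upward, where 30.2% of all genes were called higher and 30.8% lower. Of 27 TGF-beta pathway genes 18 rose and 4 fell (median 0.56). The ligand TGFB2 rose from 0.307, 0.116 and 0.135 TPM to 4.27, 3.17 and 3.62 TPM (3.67, SE 0.165), the receptor TGFBR1 from 5.39, 5.17 and 4.91 TPM to 15.0, 14.7 and 13.9 TPM (1.18, SE 0.0597), and the inhibitors SMAD6 and SMAD7 by 1.81 and 2.61. LTBP1, which holds latent TGF-beta in the matrix, fell by 2.69. Of 15 Wnt targets tested 10 rose and 2 fell (median 0.65), among them the feedback inhibitors NOTUM (2.76, SE 0.153), AXIN2 (1.05) and ZNRF3 (0.65), with MYC and TNFRSF19 (-2.37) as the falls. In AGO1-intact nuclei the counts were 5 higher and 9 lower TGF-beta genes and 3 higher and 5 lower Wnt targets. In that comparison 20.1% of all genes were higher and 19.8% lower.

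In nuclei, sterol and interferon genes rose without a single called fall, where 30.2% of all genes were called higher and 30.8% lower. Of 26 cholesterol synthesis genes 23 were higher (median 0.71). INSIG1, the sterol-responsive retention factor, rose from 8.41, 7.38 and 6.38 TPM to 37.9, 22.1 and 40.3 TPM (2.08, SE 0.230), without overlap. MSMO1, a sterol demethylation enzyme, rose from 17, 15.7 and 13.7 TPM to 39.9, 27.6 and 42.2 TPM (1.26, SE 0.179). FDPS, the most abundant of the list and the enzyme that makes farnesyl diphosphate, did not pass the test (0.14, adjusted p = 0.289). In the cytoplasm the median was 0.21, with 8 of 26 higher and 2 lower, and MSMO1 rose by 0.64 there. AGO2 loss in AGO1-intact nuclei gave 22 higher and 0 lower of the same genes (median 0.65), where 20.1% of all genes were higher and 19.8% lower.

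Of 31 interferon-stimulated and RNA-sensing genes 21 were higher (median 0.73). IFI6 rose from 1.68, 2.97 and 3.06 TPM to 13.6, 11.4 and 15.9 TPM (2.16, SE 0.244), IFIT1 from 1.27, 1.22 and 0.924 TPM to 5.07, 3.47 and 6.03 TPM (1.83, SE 0.226), and IFITM3, the most abundant, from 90.5, 95.1 and 87.4 TPM to 185, 176 and 173 TPM (0.74, SE 0.0769). The RNA sensor IFIH1 did not pass the test (-0.04). Cytoplasmic calls for this list were 16 higher and 5 lower of 31 (median 0.32). In AGO1-intact nuclei AGO2 loss gave 10 higher and 0 lower (median 0.26), where 20.1% of all genes were higher and 19.8% lower. Glucose metabolism also leaned upward, with 25 of 32 glycolysis and hypoxia genes higher and 2 lower (median 0.45). SLC2A1, the basal glucose transporter GLUT1, rose from 65.3, 55.0 and 55.8 TPM to 181, 221 and 164 TPM (1.70, SE 0.115), ENO2 from between 5.23 and 5.42 TPM to between 26.3 and 27.4 TPM (2.38, SE 0.0808), and PDK1 fell by 1.13. In the cytoplasm the glycolysis list had 11 higher and 12 lower members, and with AGO2 loss in AGO1-intact nuclei 15 higher and 2 lower (median 0.27).

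**Figure D4:**
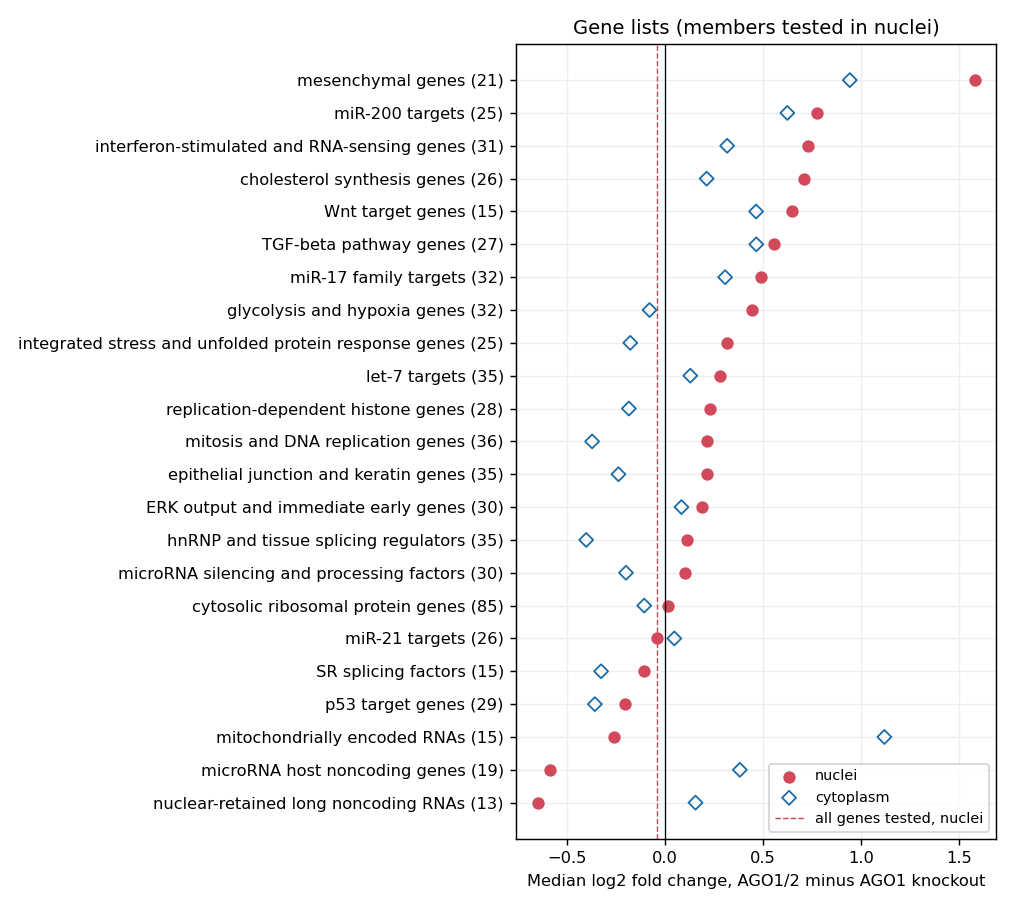
Median log2 fold change (AGO1/2 minus AGO1 knockout) of each gene list in nuclei (filled circles) and cytoplasm (open diamonds), with the number of members tested in nuclei and the median over all tested genes as a dashed line. Among lists with at least 10 tested members, mesenchymal genes are highest in nuclei (1.58), and host genes of microRNAs (-0.59) and lncRNAs listed as nuclear-retained (-0.65) are lowest.

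One long stretch of the genome stood apart. Over chromosome 8 from 70 to 150 Mb, a stretch delimited after its values were seen, 15 of 357 genes were higher and 265 lower, with a median of -0.78 (-0.35 on log2(TPM + 1)). On all other chromosomes 5596 of 18236 genes were higher and 5498 lower, with a median of -0.03 (0.07 on log2(TPM + 1)), and on chromosome 8 from 0 to 40 Mb 74 genes were higher and 44 lower (median 0.03). Of bins of 10 Mb with at least 20 tested genes, those at 120 to 130, 90 to 100 and 80 to 90 Mb of chromosome 8 were the lowest of all 275, at -1.15, -1.0 and -0.96. The oncogene MYC, within the stretch, was at 148, 138 and 136 TPM and at 70.6, 72.2 and 75.2 TPM (-1.17, SE 0.0687). PVT1 beside it went from 57.6, 45.3 and 45.1 TPM to 18.0, 22.7 and 15.9 TPM (-1.65, SE 0.0950). ESRP1, MAL2, E2F5, ZNF704 (-5.73) and GRHL2, a transcription factor of epithelial differentiation at 3.14, 2.40 and 1.31 TPM and then 0.117, 0 and 0.0205 TPM, lie in the same stretch, as does AGO2 itself.

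The lower level held in the cytoplasm and in the line without AGO3 as well. In the cytoplasm 15 of 312 genes of the stretch were higher and 213 lower (median -0.67). Relative to wild-type nuclei, the median level over the 357 genes was -0.05, -0.04 and -0.03 in the AGO1 knockout libraries, -0.60, -0.62 and -0.58 in the AGO1/2 knockout libraries and -0.61 in each of the 3 AGO1/2/3 knockout libraries, while the AGO2 knockout libraries were between -0.09 and -0.08. Both lines lacking AGO1 and AGO2 were low and the other lines were near wild type, with no overlap. Chromosome copy number was not measured, and a difference between lines in copies of this stretch and an effect of losing AGO2 cannot be told apart. Without these genes 18562 genes remained, of which 11266 were called and 3419 differed by at least 1 on the log2 scale. The lists kept their medians to within 0.1 except the microRNA hosts, which moved from -0.59 to -0.39.

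**Figure D5:**
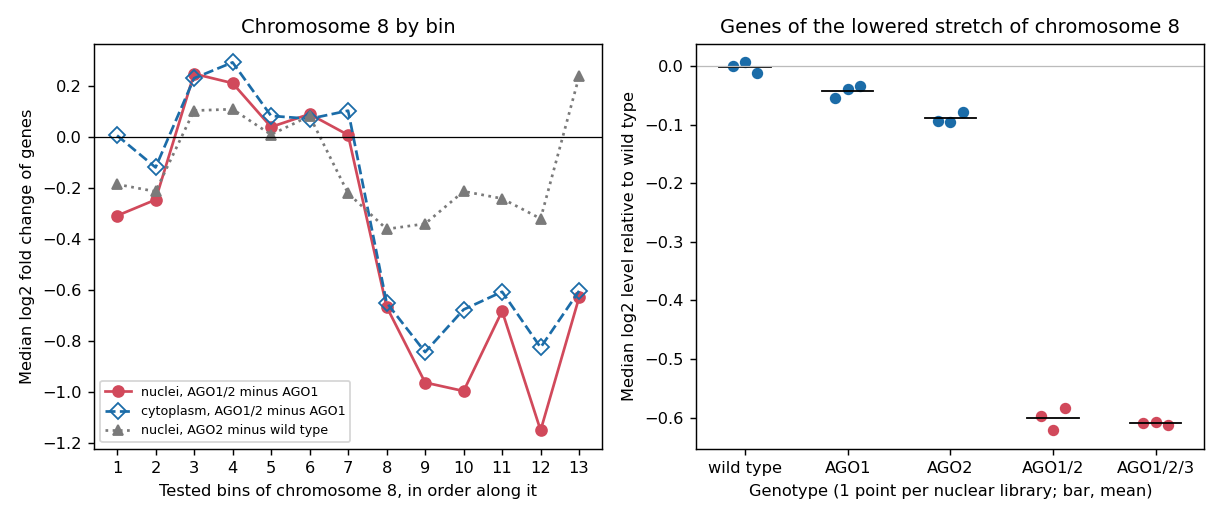
Left, median log2 fold change of genes along chromosome 8 by 10 Mb bin in order of position, for AGO1/2 minus AGO1 knockout in nuclei (circles) and cytoplasm (diamonds) and for AGO2 knockout minus wild type in nuclei (triangles). Right, median level of the 357 genes between 70 and 150 Mb relative to wild type, 1 point per nuclear library with the group mean as a bar, where libraries lacking both AGO1 and AGO2 lie between -0.62 and -0.58 and the others between -0.09 and 0.01.

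The cytoplasm of the same lines was measured in separate libraries. Of 16723 genes tested in both fractions, 63.0% were called in nuclei and 55.7% in cytoplasm. Both called 6783 genes, 64.4% of the nuclear calls and 72.9% of the cytoplasmic calls, and 6164 of these had the same direction (90.9%). The difference between the fractions was itself tested. It was called for 5360 of 19216 genes (27.9%), 13.1% with the higher value in nuclei and 14.8% with the lower. MAP4K5, a kinase of stress signalling, rose by 0.20 in nuclei (18.6 ± 0.803 and 20.5 ± 1.47 TPM, SD, n = 3) and by 2.38 in cytoplasm, where it went from 2.15 ± 0.417 to 7.94 ± 0.887 TPM, an interaction of -2.29 on the log2 scale (edgeR, adjusted p = 7.21e-09). FKBP10, a collagen chaperone of the endoplasmic reticulum, rose by 0.67 in nuclei and by 2.67 in cytoplasm (-2.11). LMAN1, a cargo receptor between endoplasmic reticulum and Golgi, fell in both fractions, by 2.52 in nuclei and by 4.33 in cytoplasm, and the helicase RECQL did so by 2.52 and 4.28. Mitochondrially encoded RNAs, a measure of cytoplasmic RNA, rose in the cytoplasm for 12 of 15 genes (median 1.12) and in nuclei for 0 of 15, where 4 fell (median -0.26, and -0.03 on log2(TPM + 1)). Of 36 mitosis and replication genes 15 were higher and 2 lower in nuclei, and 2 were higher and 21 lower in cytoplasm, a contrast that was not tested for the list. Protein-coding genes gave 5455 higher and 3345 lower of 13601 in nuclei, and 4213 and 4039 of 13311 in cytoplasm.

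AGO2 loss was also compared with and without AGO1. In AGO1-intact nuclei 7549 genes were called between AGO2 knockout and wild-type cells (39.9%). Of these, 5490 were also called in the AGO1-null comparison (47.5% of its calls and 72.7% of the others), 4544 in the same direction (82.8%). No library is shared between the pair of comparisons. The test of the difference between them called 7330 of 18919 genes (38.7%), 20.7% higher and 18.1% lower in the AGO1-null background. DCLK1 had the largest of the named differences beside TM4SF18, at 13.5 for each. In AGO1-intact nuclei both were at low levels, DCLK1 at a mean of 0.257 TPM in wild-type and 0.00267 TPM in AGO2 knockout cells (-6.17) and TM4SF18 at 0.805 and 0.0207 TPM (-5.33). The zinc finger gene ZNF704, on chromosome 8, gave -6.30, with a rise of 0.57 in AGO1-intact nuclei and a fall of 5.73 in AGO1-null nuclei. The interaction of the sterol gene INSIG1 did not pass the test (0.66, adjusted p = 0.142). IFITM3 of the interferon list did not pass it either (0.09, adjusted p = 0.573).

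Exon skipping, which the study set out to measure in nuclei, was called in few events. Of 21744 annotated skipped exons tested on transcript TPM, 527 were called in limma at an adjusted p of at most 0.05 with a change in inclusion of at least 10 percentage points (2.42%). There were 263 gains (1.21%) and 264 losses (1.21%) in 464 genes, 335 of which were also called in their total level (72.2%, against 69.5% of the 7828 genes with a tested event), and the median change was 15.5 points. Inclusion rests on how reads were divided among annotated transcripts, not on junction reads. In SLK, a kinase of cytoskeletal remodelling, an exon of 93 bases (chromosome 10, 104010816 to 104010908) was included in 42.9%, 48.5% and 49.3% of transcripts in AGO1 knockout nuclei and in 12.3%, 9.43% and 12.6% in AGO1/2 knockout nuclei (adjusted p = 2.78e-05). In CTNND1, the cadherin partner p120-catenin, an exon of 119 bases (chromosome 11, 57789037 to 57789155) fell from 88.4% ± 1.26 to 57.3% ± 1.99 (SD, n = 3). Both changes went in the same direction in AGO1/2/3 knockout nuclei, at 14.8% and 68.3%, and stayed nearer the AGO1 knockout value in AGO2 knockout nuclei, at 52.7% and 84.0%.

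Gains included an exon of 39 bases of the membrane repair protein MYOF, from 30.7% ± 3.0 to 64.1% ± 5.01, and an exon of 72 bases of LRRFIP2, from 43.0% ± 6.23 to 73.8% ± 0.977. In the G protein subunit gene GNB1 an exon of 49 bases went from 54.8% ± 3.11 to 87.3% ± 1.41, but wild-type and AGO2 knockout nuclei were at 88.0% and 88.8%, so that the AGO1 knockout line was the one that stood apart. The exon of 24 bases of TPGS2 went from 0% in all 3 libraries to 60.0%, 84.8% and 68.9%, a call that was lost when any 1 library was left out. The largest other losses were in RPAIN (69.3% to 37.5%), SSBP4 (51.2% to 23.8%) and COPS8 (85.8% to 58.9%). The remaining named gain, in MSRB3-AS1, rests on a level of 0.386 TPM in AGO1/2 knockout nuclei. The study chose 7 genes for follow-up, partly from these libraries, by particular exons that differed from wild type, and checked those by RT-PCR. Here every annotated skipped exon of these genes that averaged at least 1 TPM was tested, against AGO1 knockout, which is a different contrast. Of these 45 events 1 was called, where 2.42% of all events were. It was the exon of FKBP14 that the study followed (chromosome 7, 30020213 to 30020304, 28.3% ± 2.86 to 16% ± 3.06, adjusted p = 0.0446 in limma). That call was lost with a fit of the 2 groups alone and when any 1 library was left out. The exons followed in PHLDB1 (-5.72 points), TBC1D5 (-7.45), RUBCN (4.55) and PPIP5K2 (-4.78) were not called. Nor were the exon of 21 bases of KIF21A (1.53) and the only tested exon of APIP (5.53). Of these exons, only that of PPIP5K2 went against the direction the study gave relative to wild type.

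Splicing regulators themselves changed modestly in nuclei. Of 15 SR genes 1 rose and 6 fell, led by the abundant SRRM2, from 352 ± 30.5 to 240.2 ± 4.84 TPM (SD, n = 3; -0.77, SE 0.0789), and the list median of -0.11 was 0.11 on log2(TPM + 1). Of 35 hnRNP and tissue regulators 11 rose and 5 fell (median 0.11), close to the protein-coding median of 0.12. In the cytoplasm 5 of these 35 rose and 21 fell (median -0.40), and 0 of the 15 SR genes rose and 8 fell (median -0.33). The muscleblind gene MBNL2 rose from 13.1, 12.5 and 12.3 TPM to 54.1, 63.3 and 56.5 TPM (1.97, SE 0.117), and MBNL3 (1.12), PTBP3 (0.86) and RBFOX2 (0.85) also rose, while PTBP2, the neuronal polypyrimidine tract protein, fell from 17.6, 15.0 and 14.4 TPM to 9.10, 10.2 and 8.89 TPM (-0.93, SE 0.0869).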

How the data were processed

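RNA-seq of nuclear and cytoplasmic RNA was analysed. The authors depleted ribosomal RNA, prepared stranded total RNA libraries and sequenced paired ends. The submitters' processing notes name STAR 2.5.3a, Salmon 0.11.0 and DESeq2, with no role or order. The expected counts, as deposited, are Salmon's estimated reads per transcript, without normalization. The TPM values, as deposited by the authors, are scaled by Salmon for effective length and library total. The 8 eCLIP samples were not used here.

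Transcripts (200401) were matched by identifier without version to GENCODE release 44 on GRCh38. The 4361 unmatched transcripts carried 2.23% to 4.01% of reads and were left out. Counts were summed per gene, rounded and tested with edgeR 4.0.16 (R 4.3.3; TMM, filterByExpr with a minimum count of 10, robust quasi-likelihood F test, all 15 nuclear libraries in 1 fit) with Benjamini-Hochberg adjustment at 0.05. The contrast between fractions used 12 libraries. Skipped exons were tested with limma 3.58.1 on log2 ratios of TPM with 0.1 TPM added, for events averaging at least 1 TPM. An exact permutation test over 3 against 3 libraries cannot go below p = 0.1. On simulated nuclear data with 18919 genes, edgeR recovered 60 of 67 genes changed by 2 on the log2 scale, 47 of 66 changed by 1 and 25 of 67 changed by 0.5, with 8 false calls. No other genes were changed in the simulation, whereas 11546 were called in the real data, so these rates need not hold there. The limma test of skipped exons, on 21744 simulated events, recovered 20 of 53 events changed by 2, 7 of 82 changed by 1 and 0 of 65 changed by 0.5.

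The planned control hsa-miR-124-3p was not analysed here, and some genes that the naming rule selects are not reported here. The genes named were AGO1 to AGO4, the 12 largest rises and falls among coding genes and 4 among lncRNAs (at least 5 TPM, no overlap), up to 4 called members of each list with the largest change plus the most abundant, the 5 largest interactions each way, and members of lists described in full. The comparison, members and lists were chosen with earlier results of these data known, and lists were described by counts and medians, without a test. Alternatives were DESeq2 1.42.0, RLE, other filters, length-scaled counts, limma on TPM, 2 groups alone and each library left out, with 3 more chosen after seeing the data (limma on cytoplasmic TPM, no genes of the stretch of chromosome 8, UTRs of intermediate length). Nuclear and cytoplasmic libraries with the same passage number did not deviate together in every case (r from -0.0285 to 0.227), so passage was not used as a block.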

Additional observations from a re-analysis of the deposited data

Results flagged for a closer look

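The effect of AGO2 loss differed by an interaction test in edgeR between AGO1-null and AGO1-intact nuclei for 7330 genes, and between nuclei and cytoplasm of AGO1-null cells for 5360 genes. The values below are those interactions on the log2 scale, for the genes with the largest ones among the calls.

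Between AGO1-null and AGO1-intact nuclei, the genes lower in the AGO1-null background were ANK3 (-11.3), SLC1A3 (-8.38), ZNF704 (-6.30), ADGRF1 (-6.23) and MAL2 (-6.02). ANK3 was at a mean of 8.70 TPM in wild-type and 4.69 TPM in AGO2 knockout nuclei, and SLC1A3 at 9.67 and 16.5 TPM. The genes higher in the AGO1-null background were TM4SF18 (13.5), DCLK1 (13.5), ZNF595 (9.09), MYBPH (8.16) and SLC2A3 (7.29). ZNF595 was nearly absent from the AGO2 knockout line (0.00352 TPM against 5.31 TPM in wild type) and changed by -0.44 in AGO1-null nuclei. MYBPH was at 0.0237 TPM in wild-type and 0.0158 TPM in AGO2 knockout nuclei, and without the wild-type library of passage 27 its interaction was 4.16 and no longer passed the test.

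Between nuclei and cytoplasm, the genes with the lower nuclear effect were MAP4K5 (-2.29), FKBP10 (-2.11), ENSG00000275778 (-1.98), BSCL2 (-1.84) and ZNG1F (-1.73). BSCL2, which encodes the lipid droplet protein seipin, changed by -0.37 in nuclei and 1.35 in cytoplasm. ZNG1F fell by 1.64 in nuclei, and its cytoplasmic value of -0.02 did not pass the test. It has near-identical paralogs, so its level is uncertain. The genes with the higher nuclear effect were LMAN1 (1.69), RECQL (1.65), MKKS (1.22), EPRS1 (1.07) and DAB2IP (1.07). EPRS1, the glutamyl-prolyl tRNA synthetase, fell by 0.32 in nuclei and by 1.51 in cytoplasm. DAB2IP, a RAS GTPase activator, fell by 1.33 and 2.51. The MKKS value belongs to ENSG00000285508, which shares its symbol with another gene and lost its call when some single libraries were left out.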

How the results depend on the processing

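Of 154 named genes besides AGO2, 128 kept direction and call in every alternative run. The call counts stayed within 1.5 times of the value given, with these exceptions. The count of genes differing by at least 1 on the log2 scale was 1336 with limma on log2(TPM + 1) and 2026 with a mean count of at least 50. The interaction between fractions was called for 9545 genes with limma on log2(TPM + 1). The count of skipped exons was 285 with 2 groups alone, 325 at a mean of 5 TPM, 960 with 1 TPM added and 156 with a required change of 0.2, and between 320 and 416 when 1 library was left out, with the lowest values without AGO1/2 knockout passages 10 (320) and 9 (341). AGO2 gave -0.53 with length-scaled counts and -0.39 and -0.38 with limma on log2(TPM + 0.1) and log2(TPM + 1), all past the threshold, and 0.0459 without AGO1/2 knockout passage 11 (-0.1122 to 0.0459 over libraries left out). The causes were not tested.

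Sign changes, mostly of values close to 0, were as follows. AGO3 gave -0.11 with length-scaled counts and -0.0004 with a mean count of at least 50. On the 2 limma scales FLNA gave 0.13 and 0.13, RPL4 0.24 and 0.24, the SR median 0.11 and 0.11, and the p53 median 0.0135 and 0.0117. RPL4 also gave 0.0175 with DESeq2, 0.0175 with RLE, 0.0918 with length-scaled counts, 0.0212 without a filter, and -0.0632 to 0.0451 with single libraries left out. MAP4K5 gave -0.0149 with length-scaled counts. Among seed families, miR-17 gave -0.0042 to 0.0161 with single libraries left out, miR-122 -0.0024 with limma, and, with UTRs of intermediate length, an alternative added after seeing the data, miR-200b 0.0281 and miR-141 -0.0319.

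Leaving out single libraries gave 10577 to 11294 nuclear calls, 3404 to 3790 at the 2-fold size, 8566 to 9101 cytoplasmic calls, 6502 to 7668 and 4372 to 5621 interactions (AGO1 background and fraction). No paired analysis was possible for the nuclear comparison because the groups share no passage number. With culture as a replicate block, the interaction between fractions was called for 7897 genes. Depth limits the smallest values: genes with a few reads, such as ANK3 after AGO2 loss, have wide counting intervals.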

Other observations

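Of 29 p53 targets 13 were lower and 6 higher, with a median of -0.21 that was 0.01 on log2(TPM + 1). Over all genes 30.8% were lower and 30.2% higher. DDB2, a DNA damage recognition factor, fell from 43.7, 38.8 and 35.5 TPM to 17.1, 20 and 19.6 TPM (-1.34, SE 0.0620), near the wild-type mean of 20.9 TPM, and MDM2 fell from 143, 133 and 135 TPM to 100, 103 and 86.1 TPM (-0.61, SE 0.0672), above the wild-type mean of 76.1 TPM in both groups. The checkpoint inhibitor CDKN1A did not pass the test (0.50, adjusted p = 0.0693).

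Of 30 ERK output and immediate early genes 14 were higher and 6 lower (median 0.19). Over all protein-coding genes 5455 of 13601 were higher and 3345 lower (median 0.12). FOSL1 rose from 39.9, 30.8 and 31.1 TPM to 112, 142 and 89.1 TPM (1.55, SE 0.141) and EPHA2 by 1.45, while EGR1 (-1.21) and FOS (-1.06) fell. Of 25 stress and unfolded protein response genes 8 were higher and 1 lower, and the higher ones included chaperones of the endoplasmic reticulum. PDIA4 went from 70.6, 65.5 and 62.6 TPM to 173, 159 and 157 TPM (1.10, SE 0.0638), and HSPA5 rose by 0.84. ATF4 (0.13) and DDIT3 (-0.07) did not pass the test. Of 28 replication-dependent histone genes 8 were higher and 2 lower. Of 85 cytosolic ribosomal protein genes 14 were higher and 15 lower, among them RPS10 (-1.12). Cytoplasmic calls were 7 higher and 9 lower for the ERK genes and 3 and 4 for the stress genes. Histone genes gave 0 and 4 there, and ribosomal protein genes 7 and 35.

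Of 20 colon epithelial genes only 3 could be tested. Of these, 1 was higher and 1 lower, where 30.2% of all genes were higher and 30.8% lower. The transcription factor gene HNF4A rose (1.24) and CDX2 did not pass the test (-0.09). Of 16 immune and endothelial markers 6 were tested, 4 were higher and 1 lower, to be read against the same shares of all genes. LYZ, encoding lysozyme, had 1 read in AGO1 knockout nuclei and 340 in AGO1/2 knockout nuclei (ratio 211, 95% counting interval 37.6 to 8360), and CD68 rose by 3.15, while PTPRC and CD3E were near 0.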
